A study of Mus musculus with 8 samples.

Results

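Macrophages clear dying cells with a small set of receptors and soluble bridging proteins, and 10 genes of that set were followed here in mouse peritoneal macrophages: Timd4, Mertk, Axl, Tyro3, Gas6, Pros1, Mfge8, Lrp1, Elmo1 and Anxa1. The members were picked by name, and a probe was taken as a member's when its accession belonged to the gene. All 10 were found among the 21154 genes named on the array, with 12 probes in all, since Tyro3 and Anxa1 had 2 probes each. All 10 passed the filter on dim probes and were tested, Timd4 through the Fra-2 groups alone. No member passed the test between knockout and control cells, and 8 of the 10 did between the control cells of the mouse lines. Of all features tested, 0.013% passed it in the Fra-1 knockout comparison, 0% in the Fra-2 knockout comparison and 35.8% between the control cells.

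The study compared macrophages that lacked the AP-1 transcription factor Fra-1 (gene Fosl1) or Fra-2 (gene Fosl2) with cells of floxed littermates, on 8 single-colour arrays, 2 per group. The Fra-1 controls were wild-type Fra-1lox/lox mice and the Fra-1 knockouts were Fra-1lox/lox MxCre-/+ mice, and both groups were labelled thioglycollate elicited. The Fra-2 controls were wild-type Fra-2lox/lox mice and the Fra-2 knockouts were Fra-2lox/lox LysMCre-/+ mice, with no elicitation named in their labels. All mice were male or female, were 8 weeks old and had a 129/C57Bl6 background. Mx Cre is driven by an interferon-responsive promoter that is not restricted to macrophages, and whether an inducer was given is not stated in the sources used here. LysM Cre is active in myeloid cells, so any other cell type in the Fra-2 knockout cultures would keep the gene. Cells were washed from the peritoneal cavity and plated overnight, and RNA was taken from those that adhered. Mouse line and elicitation went together in all groups, and in the knockouts the Cre driver went with them. The labels of the controls name no Cre. A difference between the control groups therefore cannot be assigned to line or to elicitation. One that includes the knockouts cannot be assigned to line, elicitation or Cre driver. Whether each array held the RNA of its own mouse is not stated in the labels, so p-values measure the spread between these samples.

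The members act at successive steps of the same task. Dying cells expose phosphatidylserine, which Tim-4 (Timd4) binds directly and which MerTK, Axl and Tyro3, the TAM receptor kinases, bind through the bridging proteins Gas6 and protein S (Pros1). MFG-E8 (Mfge8) bridges phosphatidylserine to integrins, LRP1 (Lrp1) binds calreticulin and other ligands at the surface of dying cells, ELMO1 (Elmo1) works with DOCK proteins to activate Rac and move the membrane, and annexin A1 (Anxa1) is a phosphatidylserine-binding protein that also acts on formyl peptide receptors. Tim-4 and MerTK are known as proteins of resident macrophages of the peritoneal cavity.

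The 250 bases before a transcription start of each gene were read from RefSeq promoter windows of build GRCm38.p6, which covered all 10 members in 11 windows because Elmo1 had 2. The start is the one the window gives. For Timd4, Axl, Tyro3 and 1 of the 2 Elmo1 windows it lay inside the span of the gene. Timd4, Mfge8 and Anxa1 are shown because their signals differed most between the lines, Timd4 in one direction and the others in the opposite one. They are given 5′ to 3′ on the gene's strand, from chr11:46810549-46810798 (plus strand) for Timd4, chr7:79149061-79149310 (minus strand) for Mfge8 and chr19:20390672-20390921 (minus strand) for Anxa1, and capitals mark a TATAAA match.
Timd4: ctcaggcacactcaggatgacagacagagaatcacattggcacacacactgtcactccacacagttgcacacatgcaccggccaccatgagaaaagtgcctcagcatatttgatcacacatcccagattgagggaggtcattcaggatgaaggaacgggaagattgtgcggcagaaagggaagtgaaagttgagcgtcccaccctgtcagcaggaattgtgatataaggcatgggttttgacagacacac
Mfge8: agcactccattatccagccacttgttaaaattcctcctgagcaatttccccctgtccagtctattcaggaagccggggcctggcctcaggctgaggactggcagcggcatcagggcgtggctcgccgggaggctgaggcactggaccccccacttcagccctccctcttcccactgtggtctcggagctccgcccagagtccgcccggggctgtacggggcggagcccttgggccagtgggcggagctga
Anxa1: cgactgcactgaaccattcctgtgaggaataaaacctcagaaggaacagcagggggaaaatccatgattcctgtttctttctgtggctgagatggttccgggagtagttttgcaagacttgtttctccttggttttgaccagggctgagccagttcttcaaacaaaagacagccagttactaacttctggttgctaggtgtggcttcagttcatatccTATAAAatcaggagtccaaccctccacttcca
The Anxa1 window held TATAAA from −32 to −27 relative to the start, and 1 Elmo1 window held it on the other strand from −233 to −228. On both strands, 12.4% of all 32851 windows held that motif. The AP-1 motif TGANTCA was in 0 of the 11 member windows and in 6.75% of all windows, and the CRE motif TGACGTCA was in 0 of 11 and in 1.55%. The PU.1 motif GAGGAAGT was likewise in 0 of 11 against 2.44% of all windows, and the motif of GATA factors, AGATAA, in 0 of 11 against 9.99%. The Timd4 window had 4 CpG dinucleotides, the Anxa1 window 2 and the Mfge8 window 12, where the median window had 6. Tyro3 had 24. These are letters in a short window and show neither binding nor its absence.

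Values below are normalized log2 signals: log2 of the array's processed signal minus log2 of that array's 75th percentile, so that 0 is the 75th percentile of the array. Between 47.7% and 57.6% of noncontrol spots per array were well above background, and the array's 75th percentile lay between 315 and 470 intensity units. The dimmest probe that still stood well above background had a signal of −3.58 on Fra-2 knockout 1 and of −4.45 to −4.98 on the remaining arrays. As a check of the labels, the Fosl1 signal was −2.73 and −1.97 in Fra-1 controls and −4.78 and −4.18 in Fra-1 knockouts, where it was not well above background, at least 3.91-fold lower (limma, log2 difference −2.13, SE 0.53, adjusted p = 0.359). The brighter Fosl2 probe rose rather than fell in Fra-2 knockouts, from 5.51 and 5.57 to 6.43 and 7.14 (log2 difference 1.24, adjusted p = 0.21), and the dimmer one went the other way (−1.27, adjusted p = 0.299). Whether these probes lie in the deleted exons is not known here, so they do not check the Fra-2 labels. All 10 general macrophage markers were well above background on at least 1 array of every group, with a summed signal of 1374 to 2236 times the 75th percentile. A spot left out as an outlier added nothing to such a sum.

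Timd4 separated the lines more than any other member. Its signal was 4.55 and 4.89 in Fra-2 controls and 4.49 and 4.44 in Fra-2 knockouts. The Fra-1 controls read −6.69 and −6.78 and the Fra-1 knockouts −5.52 and −6.35, not well above background on any of the 4 arrays. All 4 arrays of the Fra-2 line therefore showed a clear Timd4 signal and none of the Fra-1 line did. The control groups differed at least 822-fold. A fold with "at least" sets the bright group's mean against the higher of the dim probe and each array's lowest signal well above background. A p beside such a fold tests the log2 difference without this bound. For Timd4 that difference was −11.45 (limma, adjusted p = 6.78e-05), and it rests on Fra-1 signals not well above background. Over all arrays of each line the difference was at least 633-fold.

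The TAM receptors did not move together between the lines. Mertk was 3.51 and 3.20 in Fra-1 controls, 3.08 and 3.28 in Fra-1 knockouts, 3.86 and 4.12 in Fra-2 controls and 4.03 and 3.96 in Fra-2 knockouts. Every Fra-2 line array was above every Fra-1 line array, with 0.35 log2 units between the nearest. Mertk was 1.56-fold lower in Fra-1 than in Fra-2 controls (limma, log2 difference −0.64, SE 0.17, adjusted p = 0.030). That call was lost when an array was left out, with adjusted p = 0.124 without Fra-1 control 2 (log2 difference −0.48), 0.135 without Fra-2 control 2 (−0.51), 0.0501 without Fra-2 control 1 (−0.77) and 0.0526 without either Fra-1 knockout array (−0.64). It was also lost with slide as a block (−0.57, adjusted p = 0.0661), with no filter (0.0761) and with only the control arrays fitted (0.0779), and adjusted p was 0.0034 over all 4 arrays of each line.

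Tyro3 ran the other way. It was −0.50 and −0.11 in Fra-1 controls, −0.93 and −1.40 in Fra-1 knockouts, −1.90 and −2.31 in Fra-2 controls and −2.71 and −2.48 in Fra-2 knockouts. The groups fell in that order with no overlap between any of them. The control groups differed 3.48-fold (limma, log2 difference 1.80, SE 0.25, adjusted p = 0.0031), higher in the Fra-1 line. The second Tyro3 probe was well above background on 1 array only and was not tested.

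Axl, the TAM receptor that inflammatory signals are known to induce, was 1.88 and 2.07 in Fra-1 controls, 1.74 in the first Fra-1 knockout, 1.50 and 1.38 in Fra-2 controls and 2.56 and 2.06 in Fra-2 knockouts. The spot on the second Fra-1 knockout array was flagged as a non-uniform outlier by the deposited file, read 5.85, and was left out, so that group had 1 array. The arrays of the lines overlapped. The control groups differed by 0.54 on the log2 scale (limma, SE 0.21, adjusted p = 0.103, 95% interval 0.01 to 1.07), which did not pass the test.

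**Figure D1:**
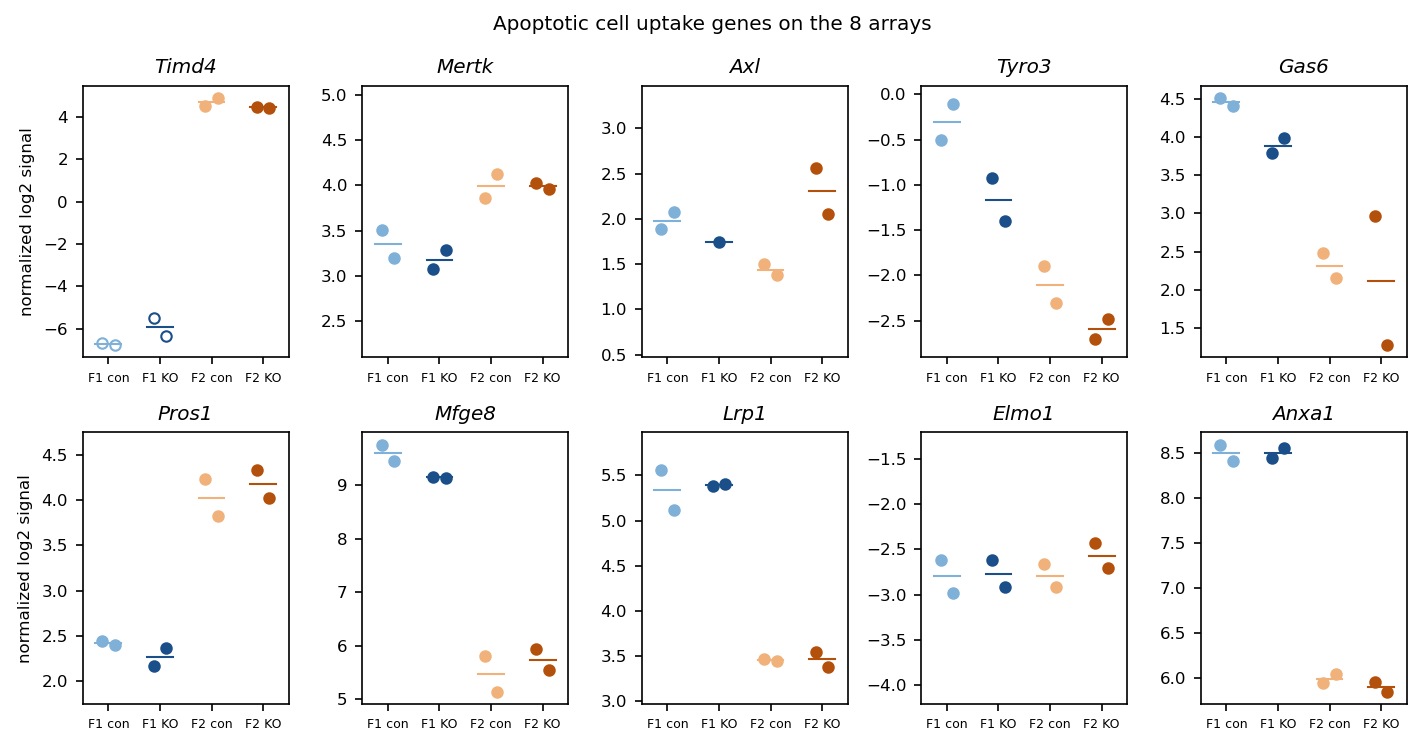
Normalized log2 signal (vertical axis, its range differing between panels) of the 10 members on each array, with points for arrays, lines for group means and open points where no array of the group was well above background; F1 is the Fra-1 line, F2 the Fra-2 line, con control and KO knockout. Timd4 lies at 4.44 to 4.89 in the Fra-2 line and is not well above background in the Fra-1 line, Mfge8 and Anxa1 lie higher in the Fra-1 line, and Axl has 1 Fra-1 knockout point because 1 spot was left out.

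The TAM ligands differed between the lines in opposite directions. Gas6 was 4.50 and 4.41 in Fra-1 controls, 3.79 and 3.99 in Fra-1 knockouts, 2.48 and 2.16 in Fra-2 controls and 2.97 and 1.28 in Fra-2 knockouts, the last pair being the widest of any member. Pros1 was 2.45 and 2.39 in Fra-1 controls, 2.17 and 2.37 in Fra-1 knockouts, 4.23 and 3.82 in Fra-2 controls and 4.33 and 4.03 in Fra-2 knockouts. Every Gas6 value of the Fra-1 line exceeded every one of the Fra-2 line, and for Pros1 the reverse held. Gas6 was 4.39-fold higher in Fra-1 controls (limma, log2 difference 2.14, SE 0.51, adjusted p = 0.0218), and Pros1 was 3.04-fold lower (−1.60, SE 0.19, adjusted p = 0.0019). The Gas6 call was lost when any control array was left out, with adjusted p = 0.0909 without Fra-1 control 1 (log2 difference 2.09), 0.0839 without Fra-1 control 2 (2.18), 0.0638 without Fra-2 control 1 (2.30) and 0.0935 without Fra-2 control 2 (1.98). Over all 4 arrays of each line it was 1.95 with adjusted p = 0.0055.

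Mfge8, the bridge to integrins, was the member with the largest excess in the Fra-1 line. It was 9.76 and 9.45 in Fra-1 controls, 9.16 and 9.14 in Fra-1 knockouts, 5.80 and 5.14 in Fra-2 controls and 5.93 and 5.55 in Fra-2 knockouts. The lowest Fra-1 line array stood 3.21 log2 units above the highest Fra-2 line array. Controls of the Fra-1 line were 17.6-fold higher (limma, log2 difference 4.13, SE 0.26, adjusted p = 0.00028). Edil3, which encodes the related bridging protein DEL-1, showed the opposite difference. It was −4.84 and −4.58 in Fra-1 controls, where it was not well above background, and 2.15 and 1.57 in Fra-2 controls, at least 95.1-fold higher in the latter (adjusted p = 0.00024). Edil3 passed the filter on dim probes only through the Fra-2 groups. The 2 bridges to integrins were thus highest in different lines.

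Lrp1 and Anxa1 were also higher in the Fra-1 line. Lrp1 was 5.56 and 5.12 in Fra-1 controls, 5.39 and 5.40 in Fra-1 knockouts, 3.46 and 3.45 in Fra-2 controls and 3.55 and 3.39 in Fra-2 knockouts, a 3.69-fold difference between controls (limma, log2 difference 1.88, SE 0.17, adjusted p = 0.00078). Anxa1 was 8.59 and 8.41 in Fra-1 controls, 8.44 and 8.56 in Fra-1 knockouts, 5.94 and 6.04 in Fra-2 controls and 5.95 and 5.85 in Fra-2 knockouts, 5.68-fold between controls (2.51, SE 0.13, adjusted p = 0.00017). Its second probe gave 7.35 and 6.92, 7.07 and 6.93, 3.83 and 3.85, and 3.67 and 3.63 in the same order of groups, a log2 difference of 3.29 between controls (adjusted p = 0.00019). Both probes thus placed Anxa1 higher in the Fra-1 line on every array. The formyl peptide receptors on which annexin A1 acts differed in the opposite direction. Fpr1 was −2.07 and −1.62 in Fra-1 controls and 5.84 and 6.51 in Fra-2 controls (log2 difference −8.02, SE 0.42, adjusted p = 0.00018), and Fpr2 was −1.75 and −1.98 against 5.58 and 6.70 (−8.01, SE 0.50, adjusted p = 0.00027). These receptors are close paralogs, and whether their probes cross-hybridise was not tested.

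Elmo1, the engulfment scaffold, showed no called difference. It was −2.61 and −2.98 in Fra-1 controls, −2.62 and −2.92 in Fra-1 knockouts, −2.66 and −2.92 in Fra-2 controls and −2.43 and −2.71 in Fra-2 knockouts. The arrays of all groups overlapped. The difference between controls was −0.01 (limma, SE 0.20, adjusted p = 0.974), with a 95% interval from −0.51 to 0.49. Differences inside that interval were compatible with these arrays.

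Of the 10 members, 8 were called between the control groups at a limma adjusted p under 0.05, 5 higher and 3 lower in Fra-1 controls. Timd4 is 1 of the 3 lower, and it passed the filter only through the Fra-2 groups, where it was bright. Of all 23116 features tested, 35.8% were called in that comparison, 18.1% higher and 17.7% lower, so a call by itself was common. The median absolute log2 difference was 1.84 over the members and 0.46 over all features. The same 5 and 3 members were apart on all arrays of the lines, and Axl and Elmo1 overlapped. Slide 1 held both Fra-1 controls and Fra-2 control 1, and within it the 8 called members kept their sign, with log2 differences of −11.28 for Timd4, −1.81 for Pros1, −0.51 for Mertk, 3.80 for Mfge8, 2.56 for Anxa1, 1.98 for Gas6, 1.88 for Lrp1 and 1.59 for Tyro3. The Timd4 value rests on Fra-1 signals not well above background. These counts describe the members and set them apart from no other list.

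Markers of several cell types moved with the lines, and in bulk RNA fewer cells of a type cannot be told apart from less RNA per cell. Of 11 markers of large resident peritoneal macrophages, 10 were called lower in Fra-1 controls, and their summed signal was 58.3 to 133 times the 75th percentile in the Fra-1 line and 997 to 1233 in the Fra-2 line. The uncalled marker was Gata6, with a mean of 1.31 in Fra-1 controls and of 1.78 in Fra-2 controls. Timd4, Mertk and Pros1, the members lower in the Fra-1 line, ran beside the 10 called markers. Fibroblast markers ran the other way, with 7 of 9 tested called higher and 1 lower and a summed signal of 41.2 to 158 in the Fra-1 line against 3.35 to 5.69 in the Fra-2 line, where Lum, Pdgfra, Dpt and Postn were not well above background in either group. Of 9 mesothelial markers, 8 were called higher, and the sum was 5.78 to 17.2 against 1.48 to 2.35, with Upk3b, Lrrn4 and Bnc1 not well above background in the Fra-2 line. The mesothelial count fell to 4 without Fra-1 control 2 or without Fra-2 control 1. Gas6, Mfge8, Tyro3, Lrp1 and Anxa1 ran beside these. All tested B cell (6), T cell (5) and mast cell (6) markers were called lower in Fra-1 controls. Their sums in the Fra-1 and Fra-2 lines were 1.43 to 5.38 against 38.7 to 81.4, 1.95 to 2.57 against 7.17 to 9.52 and 1.50 to 2.79 against 45.8 to 133, and Cd79a, Pax5 and Blk were not well above background in the Fra-1 line. Of the remaining lists, 1 marker was called higher and 1 lower of 6 for neutrophils, 1 and 1 of 3 for eosinophils, 0 and 2 of 4 for dendritic cells and 1 and 4 of 9 for small or monocyte-derived macrophages. General macrophage markers also differed, with 3 of 10 called higher and 4 lower. Without Fra-1 control 2, 3 markers of small or monocyte-derived macrophages and 1 of neutrophils were called, without Fra-1 control 1, 1 of eosinophils, and without Fra-2 control 1, 1 of dendritic cells. The part of any of these cell types in the members' differences was not tested.

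**Figure D2:**
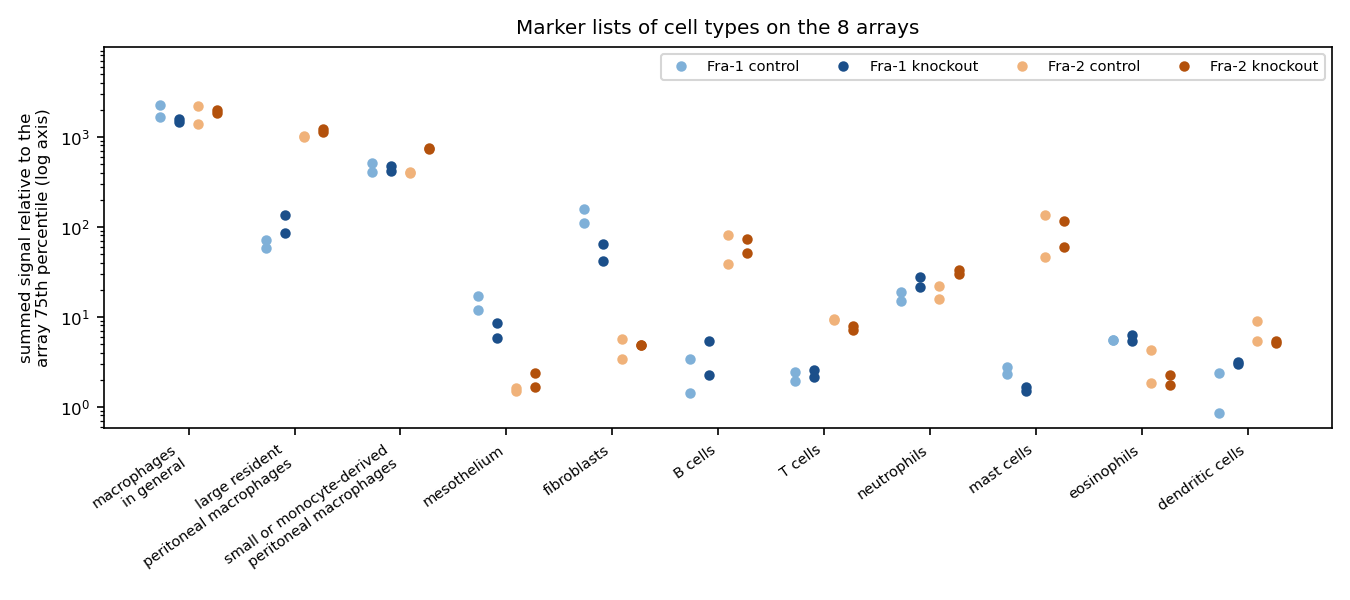
Summed signal of each marker list relative to the array's 75th percentile (vertical log axis) on each of the 8 arrays, with points coloured by group. A spot left out as an outlier adds nothing to its sum. Large resident macrophage markers sum to 997 to 1233 in the Fra-2 line and 58.3 to 133 in the Fra-1 line, and fibroblast markers to 3.35 to 5.69 and 41.2 to 158.

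In the Fra-1 knockout comparison, 0 of 10 members were called by limma, where 0.013% of all features were (3 of 23116). At an unadjusted p under 0.05 there were 2 members, Tyro3 and Timd4, and 8.83% of all features. The groups did not overlap for 6 members, 1 higher and 5 lower in knockouts, where 46.5% of all features did not overlap. The 1 higher was Timd4, from signals not well above background, and Axl, among the 5 lower, had 1 knockout array. Tyro3 had the smallest p, 1.81-fold lower in knockouts (limma, log2 difference −0.86, SE 0.25, adjusted p = 0.423). Timd4 was not well above background in either group, and its difference gives no fold. The bridging proteins were lower by estimate without passing the test. Mfge8 was at −0.45 (adjusted p = 0.661, 95% interval −1.09 to 0.18), Gas6 at −0.57 (adjusted p = 0.775, −1.82 to 0.68) and Pros1 at −0.15 (adjusted p = 0.85, −0.62 to 0.31). Beside these, the fibroblast marker sum was 110 and 158 in Fra-1 controls and 41.2 and 64.1 in Fra-1 knockouts, and the mesothelial sum 11.7 and 17.2 against 5.78 and 8.61, though 0 of 9 markers were called in either list. Other sums also moved without overlap, with 0 markers called in these lists. General macrophage markers summed to 1673 and 2236 in controls against 1467 and 1591, and mast cell markers to 2.31 and 2.79 against 1.50 and 1.67. Higher in knockouts were the sums of large resident macrophages (58.3 and 71.7 against 84.4 and 133), neutrophils (14.9 and 18.9 against 21.4 and 27.8) and dendritic cells (0.854 and 2.37 against 3.02 and 3.12). The part of any of these cells in the members' values was not tested.

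The other receptors, Elmo1 and Anxa1 did not pass the test in the Fra-1 comparison either. Mertk was at −0.18 (95% interval −0.59 to 0.23), Lrp1 at 0.05 (−0.36 to 0.47), Elmo1 at 0.03 (−0.47 to 0.53) and Anxa1 at 0.00 (−0.31 to 0.31). The Anxa1 interval was the narrowest of the 10 members. Axl was at −0.24 from 1 knockout array, and at 1.82 (limma, adjusted p = 0.694) with the outlier spot kept, so its direction rests on that spot. Slide 1 held both Fra-1 controls and 1 knockout, and within it Tyro3 was at −0.62, Mfge8 at −0.44 and Gas6 at −0.67. Slide 2 held no Fra-1 control.

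In the Fra-2 knockout comparison, 0 of 10 members were called by limma, and 0% of all features were (0 of 23116). At an unadjusted p under 0.05 there was 1 member, Axl, and 8.80% of all features (2035). The groups did not overlap for 3 members, against 35.3% of all features: Axl was higher in knockouts, and Timd4 and Tyro3 were lower. Axl was 1.83-fold higher (limma, log2 difference 0.87, SE 0.21, adjusted p = 0.324), with 1.06 within slide 1 and 0.68 within slide 2. Beside it, the marker sum of small or monocyte-derived macrophages was 391 and 407 in Fra-2 controls and 728 and 746 in Fra-2 knockouts, and the neutrophil sum 15.7 and 22.1 against 29.6 and 33.1, with 0 of 9 and 0 of 6 markers called. The median marker of the first list went against its sum, at −0.40 on the log2 scale, with Cd226 at −0.84 (limma, adjusted p = 0.322) and H2-Ab1 at −0.62 (adjusted p = 0.244), and the median neutrophil marker was at 0.51. Spots left out as outliers add nothing to a sum. In the first list, Fn1 was counted above background on neither Fra-2 control array and on both Fra-2 knockout arrays. Whether the sums of that list cover the same genes was not tested, so their difference is not read as a rise. The part of these cells in the Axl value was not tested. Tyro3 was at −0.49 (SE 0.25, adjusted p = 0.658), with −0.81 and −0.17 within the slides. Timd4 was at −0.25 (SE 0.28, adjusted p = 0.914), with −0.06 and −0.45. Gas6 was at −0.19 with a 95% interval of −1.44 to 1.05, and its sign differed between slides (0.49 within slide 1, −0.88 within slide 2). Mfge8 (0.27), Elmo1 (0.22), Pros1 (0.15), Anxa1 (−0.09), Lrp1 (0.01) and Mertk (−0.00) had intervals that included 0.

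**Figure D3:**
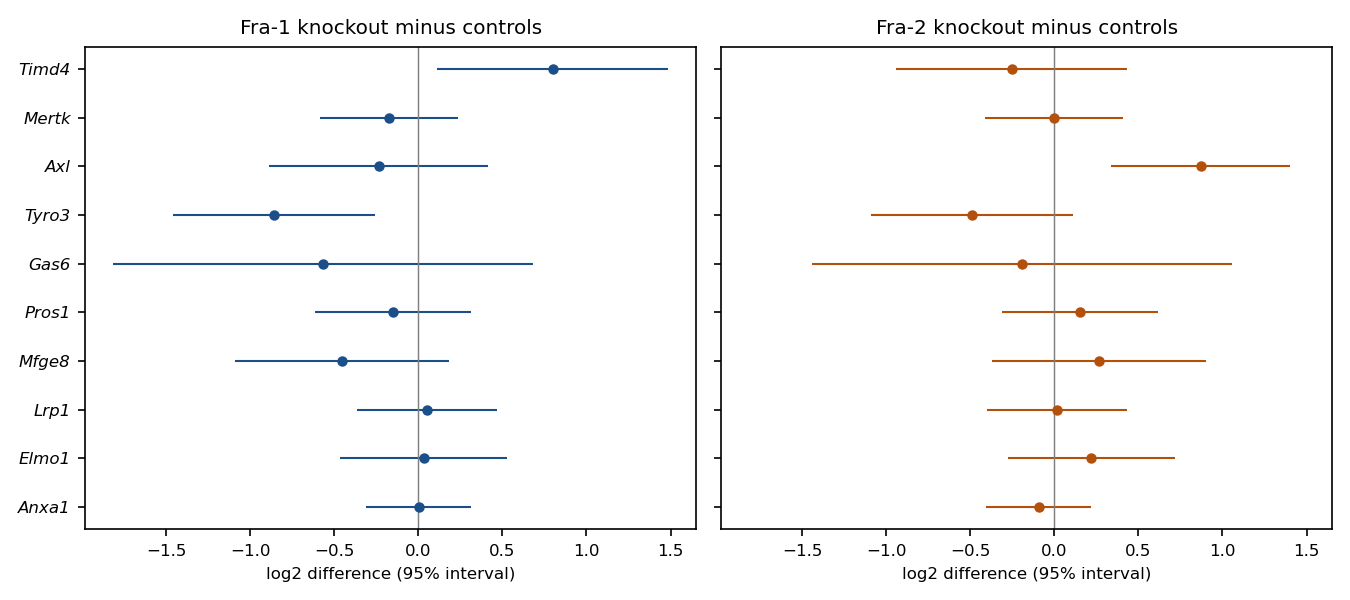
Log2 difference of each member between knockout and control arrays (horizontal axis, with the 95% interval of the limma fit as bars), in the Fra-1 line on the left and the Fra-2 line on the right. The Tyro3 points lie at −0.86 and −0.49, the Axl points at −0.24 and 0.87, and no member passed the test after adjustment.

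The knockout effects themselves were compared by an interaction term, the Fra-1 effect minus the Fra-2 effect, which uses all 4 groups. Of the 10 members 0 were called, where 0.00433% of all features were (1 of 23116). The smallest p values were those of Axl (limma, difference of effects −1.11, SE 0.33, adjusted p = 0.415) and Timd4 (1.05, SE 0.40, adjusted p = 0.495), and 2 members and 9.54% of all features had an unadjusted p under 0.05. With the outlier spot kept the Axl value was 0.95 (adjusted p = 0.875). The Timd4 value includes Fra-1 line signals not well above background. This comparison, the Fra-1 knockout comparison and that between the lines share the Fra-1 control arrays, so a member such as Tyro3, lower in Fra-1 knockouts and in Fra-2 controls, was set against the same 2 arrays both times. With 2 arrays per group, a p that misses the threshold does not show that the knockouts acted alike.

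Beyond the members, 98 genes of the pathway were listed by role, of which 97 were on the array by name and 92 were tested. In the Fra-1 and Fra-2 knockout comparisons and in their difference, 0 of 92 were called by limma, with the smallest adjusted p at 0.306, 0.105 and 0.213 and with 9, 14 and 8 genes at an unadjusted p under 0.05. Over all features, 8.83%, 8.8% and 9.54% had such an unadjusted p, so these counts are not read as a result about the pathway. The smallest belonged to Gulp1, an engulfment adaptor, in the Fra-1 knockout (log2 difference −0.95, SE 0.21, adjusted p = 0.306) and to Nr1h3, which encodes the sterol-sensing nuclear receptor LXR alpha, in the Fra-2 knockout (−1.90, SE 0.24, adjusted p = 0.105). Nr1h3 was called with a trended prior (adjusted p = 0.0373). The scavenger receptor Cd36 was at −1.21 in the Fra-2 knockout (SE 0.22, adjusted p = 0.186). Msr1, another scavenger receptor, was at 0.52 in the Fra-1 knockout (SE 0.12, adjusted p = 0.338).

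Between the control groups 56 of the 92 were called, 60.9%, with 24 higher and 32 lower in the Fra-1 line, against the 35.8% of all features given above. Some called genes passed the filter on dim probes only through the line where they were brighter. Among those named, these were Stab2 and Twist1 through the Fra-1 groups, and Edil3, Rab17 and Il10 through the Fra-2 groups. Of 17 uptake receptors, 8 were called higher and 5 lower. Marco, a scavenger receptor, was 108-fold lower (limma, log2 difference −6.76, adjusted p = 0.00055) and the lipopolysaccharide co-receptor Cd14 15.4-fold lower (−3.94). Stab2, a phosphatidylserine-binding scavenger receptor, was at least 23.4-fold higher (adjusted p = 7.91e-05), and Havcr2, which encodes Tim-3, 60.6-fold higher (5.92). Havcr2 and Timd4 belong to the same Tim family and were thus highest in different lines.

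Of 9 bridging molecules, 3 were called higher and 5 lower. Thbs1, the thrombospondin that bridges to CD36 and integrins, was 34.1-fold lower (limma, log2 difference −5.09, adjusted p = 0.00028), the complement component C1qa 6.82-fold lower (−2.77) and Cd93, a membrane protein that has been described as a C1q receptor, 6.23-fold higher (2.64). Of 19 engulfment signalling genes, 3 were called higher and 7 lower, and the differences were smaller. Gulp1 was 3.02-fold higher, and Dock5, Rhog and Arhgef6, which act on or around Rac, were 2.35-fold, 1.92-fold and 1.79-fold lower. Elmo1 thus lay among genes whose median difference was −0.25, while the bridging list had a median of −1.73 and all features −0.03.

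Of 14 find-me and do-not-eat-me genes, 4 were called higher and 6 lower. Besides the formyl peptide receptors, the inhibitory lectin Siglecg was 5.96-fold lower (limma, log2 difference −2.57, adjusted p = 0.0095) and the sphingosine phosphate receptor S1pr1 4.43-fold lower (−2.15). Siglecg lost its call without Fra-1 control 1 (−2.22, adjusted p = 0.0551), and it is also a gene of B cells, whose markers ran in the same direction. The part of B cells in the Siglecg value was not tested. Of 21 genes for digesting cargo and responding to it, 5 were called higher and 4 lower. The lipid-sensing nuclear receptor Pparg was 41.1-fold higher (5.36, adjusted p = 0.00013), and the cholesterol exporters Abcg1 and Abca1 went in opposite directions, 6.86-fold higher and 5.63-fold lower. Rab17 was at least 5.60-fold lower, which a common floor for dim signals left uncalled (adjusted p = 0.0774).

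Of 12 genes listed around the TAM receptors, for their regulation, their shedding or the response to their signalling, 1 was called higher and 5 lower. The cytokine signalling suppressors Socs3 and Socs1, which TAM signalling is known to induce, were 17.3-fold lower (limma, log2 difference −4.11, adjusted p = 0.00032) and 5.52-fold lower (−2.47, adjusted p = 0.0112), and the anti-inflammatory cytokine Il10 was 7.80-fold lower (−2.96, adjusted p = 0.0066; 1 of 2 Fra-1 control arrays was well above background). Socs1 lost its call without Fra-1 control 1 (−2.25, adjusted p = 0.0625). Twist1, a transcription factor that Axl signalling is known to induce, was higher by a log2 difference of 1.99 (adjusted p = 0.0329), with 1 of 2 Fra-2 control arrays well above background. Leaving out an array took the Twist1 call away without Fra-1 control 1 (2.29, adjusted p = 0.0745), Fra-1 control 2 (1.70, 0.146), either Fra-1 knockout (1.99, 0.055) or Fra-2 control 2 (1.17, 0.0653). It was also lost with slide as a block (1.69, 0.0676), with no filter (0.0654) and with only the control arrays fitted (0.0753). Twist1 is also a gene of mesenchymal cells, and the fibroblast marker sums above ran in the same direction. The part of such cells in the Twist1 value was not tested.

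**Figure D4:**
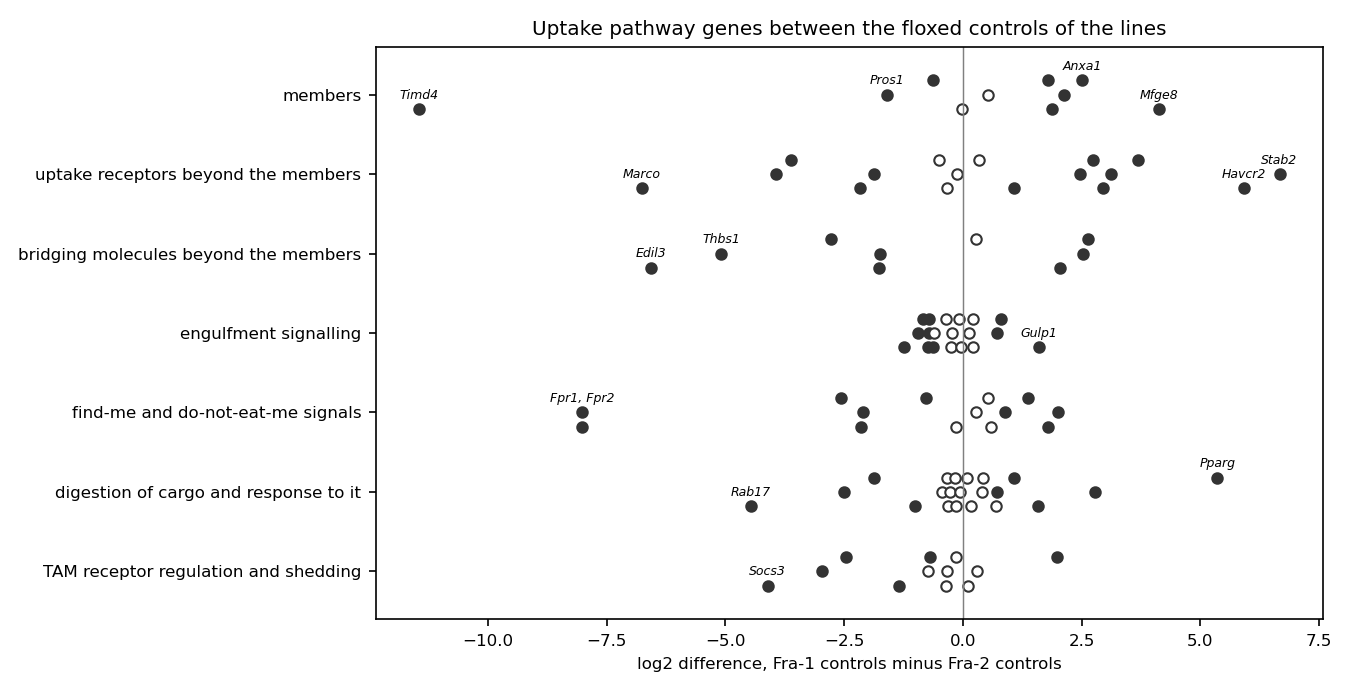
Log2 difference between Fra-1 controls and Fra-2 controls (horizontal axis) for the 10 members and the tested genes of 6 pathway lists, with filled points for genes called by limma at an adjusted p under 0.05 and open points for the others; the vertical offset within a list only separates points. Timd4 lies farthest to the left at −11.45, a value that rests on Fra-1 signals not well above background, and Mfge8 is the rightmost member at 4.13.

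Over the 8 arrays, the named genes most like each of the 8 members that differed between the lines correlated with it at 0.986 or more, and those most like Axl and Elmo1, whose arrays overlapped between the lines, less closely. For Timd4 they were Meox1 and Nlrc4 (Pearson r = 0.997 each), for Mfge8 Cfap161 and Hpgds (0.997 each), for Pros1 Acvr2b (0.998) and Sult1a1 (0.997), for Lrp1 Glmp (0.999) and Tmem62 (0.998) and for Anxa1 Zfand2a (0.9999) and Amz1 (0.999). Mertk ran most like Rspry1 (0.994) and Plxnb2 (0.993), Tyro3 like Rtn1 (0.992) and Ncam1 (0.991), and Gas6 like Paqr4 (0.988) and Pianp (0.986). Axl, over 7 arrays, ran most like S100a9 (0.965) and Maml2 (0.956), and Elmo1 like Bcl7b and Trip11 (0.901 and 0.899). S100a9, which encodes a calgranulin of neutrophils and monocytes, was at 4.93 in the Fra-2 knockout comparison (limma, adjusted p = 0.265). These correlations were the highest of 13591 genes or more on shared arrays, with the line split in common for the 8 members, so they are given as descriptions.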

How the data were processed

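Scanner output of 8 arrays was used. Per the file headers, the software was Feature Extraction 11.5.1.1 (protocol GE1_1105_Oct12), which gave each spot a linear intensity after subtraction of background. Other deposited columns are 0 or 1 flags for background and outliers. The deposited series matrix holds log2 values; set against the scanner files, it was centred on each probe's median (r 0.9999 or more, column medians −0.15 to 0.25), and it served as an alternative.

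Control spots and outlier spots (191 to 317 per array) were left out, spots of a probe were averaged, and log2 signals were scaled to each array's 75th percentile. Probes well above background on both arrays of at least 1 group were kept (31159). Names came from a RefSeq table of GRCm38.p6, used for names only, since headers give mm9: 28026 of 55681 noncontrol probes were named. The brightest probe stood for a gene. A model of group means was fitted over the 8 arrays with limma 3.58.1 (R 4.3.3; 4 residual and 1.99 prior degrees of freedom), p-values were adjusted by the Benjamini-Hochberg method over 23116 features, and the threshold was 0.05. The fit was tested on simulated data. Tables and figures used Python 3.11.15 and matplotlib 3.10.9.

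The members and lists were chosen with earlier results of these data known. Named were all members, Fosl1, Fosl2, from each list and comparison up to 4 called genes with the largest difference or the 2 smallest p, and the 2 genes most like each member; not all so named are printed. Alternatives were quantile normalization, normexp with an offset of 50, the series matrix, other filters, the mean of probes, slide as a block, fewer groups, all arrays of a line, a common floor, a trended prior and leaving out each array; keeping outlier spots was added after seeing the data. The number of arrays limits precision.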

Additional observations from a re-analysis of the deposited data

How the results depend on the processing

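The count of members called was 0 in both knockout comparisons and in their difference under every alternative run, and between controls it lay between 6 and 8: 7 with no filter, a filter on all 8 arrays, a slide block or only the control arrays, and 6 without Fra-1 control 2, Fra-2 control 1 or Fra-2 control 2. Leaving out each array gave 0 and 6 to 8. Anxa1, Lrp1, Mfge8, Pros1 and Tyro3 were called between controls in 21 of 21 fits, Timd4 in 20 of 20 (a filter on all 8 arrays removed it and Axl), Gas6 in 17 of 21 and Mertk in 13 of 21, and none of these changed direction. Without the filter, the median of all features between controls shifted by −0.18 and 17.2% were called. Over all features, counts of calls moved by over 1.5 times: against 3, the Fra-1 knockout gave 22 with quantile normalization, 21 with a common floor, 17 without either Fra-2 knockout array, 1 with only its groups and 0 with normexp, a slide block, a trended prior, no filter, a filter on all 8 arrays or without either Fra-2 control. Against 0, the Fra-2 knockout gave 53 with a trended prior, 45 without Fra-2 knockout 2, 14 with quantile normalization, 10 with normexp, 7 with a common floor and 4 or fewer otherwise. Against 1, the difference of effects gave 27 without Fra-2 knockout 2, 10 with quantile normalization and 5 or fewer otherwise. A filter on all 8 arrays tested fewer markers and called 4 mesothelial, 4 fibroblast and 3 B cell genes and 1 neutrophil gene. The following uncalled values changed sign; beyond the outlier spot for Axl and the arrays or slides left out, the cause was not tested. In the series matrix, Mertk in the Fra-2 knockout was 0.0024, Axl 1.82 in the Fra-1 knockout and 0.95 in the difference of effects; with outlier spots kept, Axl was 1.82 and 0.95. Over all arrays of each line, Axl was −0.014. With normexp, Lrp1 was −0.039, −0.0090 and −0.030 in the Fra-1 knockout, the Fra-2 knockout and their difference, Elmo1 0.0048 in the difference, and Anxa1 −0.066 in the Fra-1 knockout, where the mean of probes gave −0.065 and a slide block −0.018. Quantile normalization gave 0.14 for Elmo1 between controls. Within slide 1, Mertk was 0.16, Gas6 0.49 and Anxa1 0.0095 in the Fra-2 knockout and Anxa1 −0.055 in the Fra-1 knockout, and within slide 2 Lrp1 was −0.061 in the Fra-2 knockout. Leaving out each array, values ran in the Fra-1 knockout from −0.167 to 0.272 for Lrp1, −0.152 to 0.217 for Elmo1 and −0.0888 to 0.0917 for Anxa1. In the Fra-2 knockout they ran from −0.129 to 0.128 for Mertk, −1.04 to 0.649 for Gas6, −0.050 to 0.359 for Pros1, −0.0662 to 0.599 for Mfge8 and −0.0695 to 0.0963 for Lrp1. In the difference of effects they ran from −1.22 to 0.468 for Gas6 and −0.180 to 0.259 for Lrp1, and between controls from −0.194 to 0.174 for Elmo1. Replicate numbers follow no label, and no paired analysis was possible because the labels pair no samples. Dim genes were read least surely on Fra-2 knockout 1.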
